A study of Mus musculus with 23 samples.

Results

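The collagen gene family was followed across whole tumors of 5 syngeneic mouse models and across cancer-associated fibroblasts (CAFs) sorted from tumors of 4 of these models. Members were taken as gene symbols made of Col, a number, the letter a and a second number, and where a symbol had several transcripts the one with the highest mean was kept. This gave 44 genes of 24940 in both data sets, namely 11 fibrillar, 9 basement membrane, 9 FACIT (fibril-associated collagens with interrupted triple helices), 9 network and 4 transmembrane collagens, and *Col26a1* and *Col28a1*, which were placed in none of these classes. The tumors were B16 melanoma, EO771 breast, LL2 lung, MC38 colon and Pan02 pancreatic tumors, with 3 tumors per model. Each grew from 500000 cells of an established cancer cell line placed under the flank skin of adult, immunocompetent female C57BL/6 mice, with no further treatment, and ulcerated tumors were left out by the authors. The CAFs were cells positive for the fibroblast protein FAP, sorted from the CD45- fraction of EO771, LL2, MC38 and Pan02 tumors after overnight collagenase digestion, with 2 libraries per model. CAFs of B16 tumors were not analysed here. Every model rests on 1 cell line, so a model and its cell line cannot be told apart, and nothing in the labels states that replicates came from separate mice, so p-values measure only the spread between these samples.

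Collagens are the main structural proteins of the extracellular matrix, and each is a triple helix of alpha chains encoded by separate genes. Fibrillar collagens, above all types I and III, form the fibrils of connective tissue, and the FACIT collagens sit on their surface. Type IV collagen forms the sheet of the basement membrane under epithelia and around vessels, type VI forms beaded filaments near cells, and transmembrane collagens are anchored in the plasma membrane. In solid tumors, activated fibroblasts are the best known source of fibrillar collagen, and dense collagen deposits are a hallmark of pancreatic cancer.

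Tumor libraries held 10035180 to 21946495 counts summed over genes (median 16541415.5). CAF libraries were deposited as RPKM (reads scaled to transcript length and library size), from whose steps a depth of 9267929 to 22842028 reads was recovered. A list of 8 fibroblast genes without any collagen summed to 3326 to 3709 CPM (counts scaled to library size) in Pan02 tumors, 79.6 to 154 CPM in B16 tumors and at most 1400 CPM in any other tumor. Some libraries stood apart. MC38 CAF replicate 2 had 344 RPKM of the fibroblast list against 1327 RPKM in replicate 1, and MC38 tumor 2 had the lowest sum among the MC38 tumors, 503 CPM. Every list gene but *Dcn* was lowest there among the MC38 tumors. *Postn* was at 138 CPM against 335 and 521 CPM in MC38 tumors 1 and 3, but *Pdgfra* was at 54.2 CPM against 62.2 and 60.5 CPM. The Pan02 CAFs held 836 to 1122 RPKM of 6 epithelial genes, which include the keratins *Krt8* and *Krt18*, beside 880.4 to 908 RPKM of the fibroblast genes. The epithelial sum was 494 to 501 RPKM in EO771 CAFs, nearly all of it *Krt8*, 205 to 211 RPKM in LL2 CAFs and at most 4.23 RPKM in MC38 CAFs. All 8 fibroblast genes were above 0 in every CAF library, but so they were in every whole tumor. *Fap* was at 3.28 and 1.89 RPKM in Pan02, 6.465 and 7.16 in EO771, 9.245 and 9.91 in LL2 and 11.4 and 4.29 in MC38 CAFs. A list of 8 leukocyte genes summed to 52.05 and 61.6 RPKM in EO771 CAFs, most of it *Lyz2* at 40.2 and 49.0 RPKM. In each of the other CAF libraries the leukocyte list summed to at most 12.7 RPKM. A list of 6 skeletal muscle genes summed to 388 to 3150 CPM in MC38 tumors, to 930.0 and 1106 CPM in LL2 tumors 2 and 3 and to 38.2 to 864 CPM in Pan02 tumors, against at most 13.2 CPM in LL2 tumor 1 and in B16 and EO771 tumors. The sum of 6 pericyte genes was 343 to 539 CPM in Pan02 tumors and at most 263 CPM in the others. Most of the Pan02 sum was *Notch3*, at 362, 292 and 211 CPM against at most 31.6 CPM in any other tumor. Each of the other pericyte genes overlapped between Pan02 and other tumors, and *Cspg4* was at 12.9, 7.35 and 8.16 CPM in Pan02 against at least 38.2 CPM in EO771 tumors. In CAFs the pericyte sum was 226 RPKM in MC38 replicate 1 and at most 82.96 RPKM in the other libraries. The part of these cells in the collagen values was not tested.

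The promoters of 4 members on which the results turn are shown here, as the 250 bases that precede the transcription start in RefSeq (GRCm38.p6, which has the coordinates of mm10). *Col1a2* and *Col3a1* are fibrillar chains whose proportion to *Col1a1* differed between models, and *Col4a5* and *Col4a6* are a head-to-head gene pair. Capitals mark the CCAAT box, the TATAAA box and the GC box GGGCGG. Each was searched on both strands, so that the first is also read as ATTGG, the second as TTTATA and the last as CCGCCC, and none of them overlaps another in these 4 stretches.
Col1a2, plus strand, chr6:4505368-4505617: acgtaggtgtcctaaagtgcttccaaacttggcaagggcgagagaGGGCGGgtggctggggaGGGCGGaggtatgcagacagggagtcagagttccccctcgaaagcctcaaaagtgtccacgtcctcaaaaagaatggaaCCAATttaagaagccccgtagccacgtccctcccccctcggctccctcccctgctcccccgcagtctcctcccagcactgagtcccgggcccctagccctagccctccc
Col3a1, plus strand, chr1:45311288-45311537: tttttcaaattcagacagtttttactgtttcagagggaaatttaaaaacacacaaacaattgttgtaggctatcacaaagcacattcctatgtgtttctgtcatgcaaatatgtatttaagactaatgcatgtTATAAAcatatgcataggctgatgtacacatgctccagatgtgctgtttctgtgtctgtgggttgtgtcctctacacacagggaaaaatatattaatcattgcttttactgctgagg
Col4a5, plus strand, chrX:141475169-141475418: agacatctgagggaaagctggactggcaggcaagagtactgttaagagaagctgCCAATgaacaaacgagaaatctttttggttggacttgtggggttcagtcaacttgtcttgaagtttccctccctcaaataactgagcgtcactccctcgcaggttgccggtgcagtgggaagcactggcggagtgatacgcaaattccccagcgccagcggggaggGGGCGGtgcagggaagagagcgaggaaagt
Col4a6, minus strand, chrX:141474077-141474326: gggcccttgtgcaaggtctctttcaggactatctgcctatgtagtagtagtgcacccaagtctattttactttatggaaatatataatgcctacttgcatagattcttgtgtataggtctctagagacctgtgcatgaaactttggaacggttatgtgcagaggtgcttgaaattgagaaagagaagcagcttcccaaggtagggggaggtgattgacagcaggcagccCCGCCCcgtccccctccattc
The *Col1a2* stretch holds 1 CCAAT and 2 GGGCGG matches, that of *Col3a1* holds 1 TATAAA match, that of *Col4a5* holds 1 CCAAT and 1 GGGCGG match, and that of *Col4a6* holds 1 GGGCGG match. RefSeq lists 38 such stretches for 35 of the 44 members, and *Col1a1* is not among them. Of these, 34.2% hold CCAAT, 13.2% hold the TATAAA box and 57.9% hold the GC box, against 33.9%, 12.4% and 32.7% of the 32851 stretches of all genes. These are matches of letters and not mapped sites.

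The total amount of collagen RNA differed many times over between the models. Collagen genes took 0.133, 0.243 and 0.280% of all gene counts in the B16 tumors and 5.87, 5.77 and 5.27% in the Pan02 tumors. They took 1.18, 1.52 and 1.88% in EO771, 1.98, 0.981 and 1.38% in LL2 and 2.00, 0.758 and 1.96% in MC38 tumors. The 3 Pan02 tumors thus lay above and the 3 B16 tumors below the other models, while EO771, LL2 and MC38 overlapped. The 95% Wilson interval of a single tumor was narrow, for example 5.86 to 5.88% in Pan02 tumor 1, but it covers counting error only and not the spread between tumors. In whole tumors, fewer collagen-producing cells and less collagen RNA per cell cannot be told apart.

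Among CAFs the order was another one. Collagens took 8.07 and 7.12% of the recovered gene reads in EO771 CAFs, 6.59 and 5.28% in LL2, 6.02 and 2.17% in MC38 and 3.53 and 2.35% in Pan02 CAFs. As a share of summed RPKM these were 3.13 and 2.69%, 2.72 and 2.11%, 2.11 and 0.800%, and 1.57 and 1.06%. Both Pan02 libraries lay below both EO771 and both LL2 libraries, and the 2 MC38 libraries lay far apart, with replicate 1 between the LL2 libraries and replicate 2 below every other CAF library on both scales. With the epithelial genes of Pan02 CAFs at the sums given above, the part of other cells in their lower share was not tested.

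The makeup of the family also differed. Fibrillar collagens made up 79.4 ± 1.84% of summed collagen RPKM in Pan02 tumors (mean ± SD, n = 3) and 48.6 ± 4.76% in EO771 tumors. The basement membrane class, which is a small part of the whole in Pan02 tumors at 4.15 ± 1.66%, reached 32.1 ± 9.74% in B16, 23.3 ± 3.92% in EO771 and 22.99 ± 2.26% in LL2 tumors. Network collagens held 25.3 ± 0.809% in EO771 tumors and 12.9 ± 2.70% in LL2 tumors. MC38 tumor 2, which had the lowest fibroblast list sum of the MC38 tumors, had 45.9% fibrillar collagen where the other MC38 tumors had at least 76.9%. In CAFs the fibrillar class held 80.2 and 80.7% in EO771 and 77.9 and 79.8% in LL2, and 50.9 and 67.9% in Pan02 libraries.

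**Figure D1:**
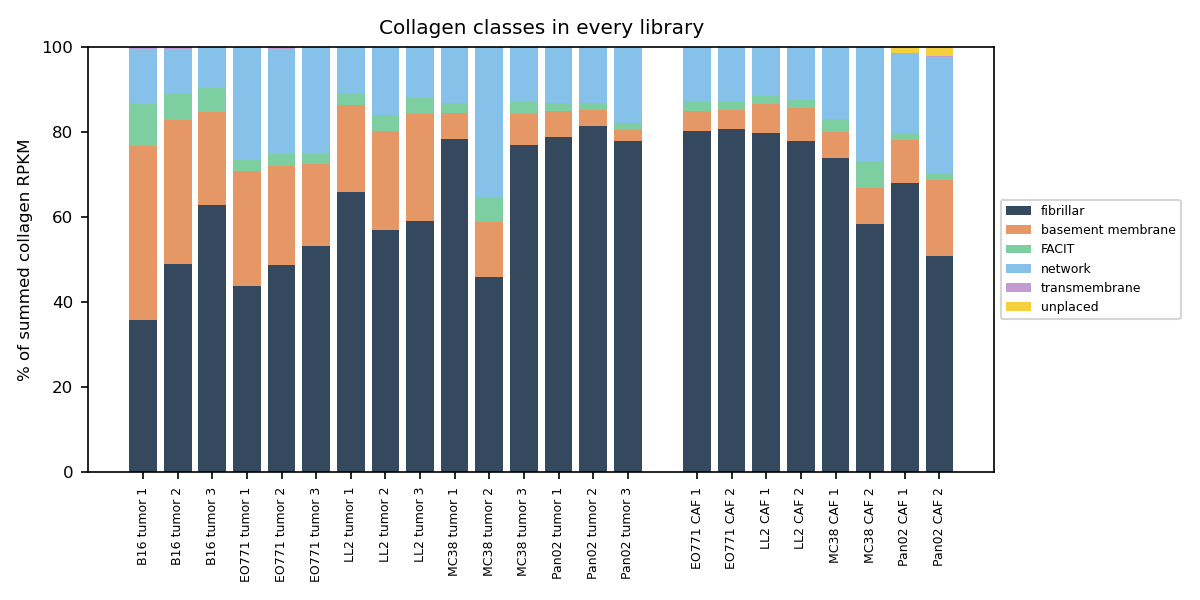
Share of each collagen class in the summed collagen RPKM of every library (y axis, percent; x axis, 15 tumors and then 8 CAF libraries). Each bar is 1 library and sums to 100%. By the mean over libraries the fibrillar class is largest in Pan02 among tumors and in EO771 among CAFs, and the basement membrane class is largest in B16 tumors, where it spans 21.7 to 41.0%.

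The question for whole tumors was how their collagen transcripts differ between models. Counts were scaled with TMM and tested with edgeR's quasi-likelihood test, and p-values were adjusted over all 15732 genes tested. Of the 44 members, 39 passed the filter on low counts, and *Col4a3*, *Col19a1*, *Col22a1*, *Col25a1* and *Col26a1* did not. Levels differed among the 5 models (adjusted p under 0.05) for 37 of the 39, which is close to the 91.1% of all genes tested that did, and the 2 others were *Col11a2* and *Col15a1*.

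Each model was then contrasted with the others, and a gene counted as called when it passed an adjusted p of 0.05 and moved by 1 or more on the log2 scale. The contrasts share their samples, so a large rise in 1 model lowers the contrasts of the rest. In Pan02 tumors 21 members were higher, beside 18.8% of all genes tested, and 2 were lower, beside 7.92%. The median log2 fold change over the 39 members was 1.34 there, against 0.05 over all genes. In B16 tumors 6 were higher and 25 lower, beside 13.1 and 19.6% of all genes, with a median of -2.40 against -0.03. EO771 tumors had 14 members higher and 6 lower, beside 9.71 and 13.7%, with a median of 0.37 against -0.04. In LL2 tumors 5 were higher and 11 lower, beside 8.51 and 8.30% and with a median of -0.59 against 0.01, and DESeq2 gave 3 higher and 12 lower. MC38 tumors had 7 higher and 1 lower, beside 11.2 and 8.23%, with a median of 0.23. With total-count scaling the median over all genes shifted by 0.14 in the MC38 and by -0.12 in the Pan02 contrast.

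**Figure D2:**
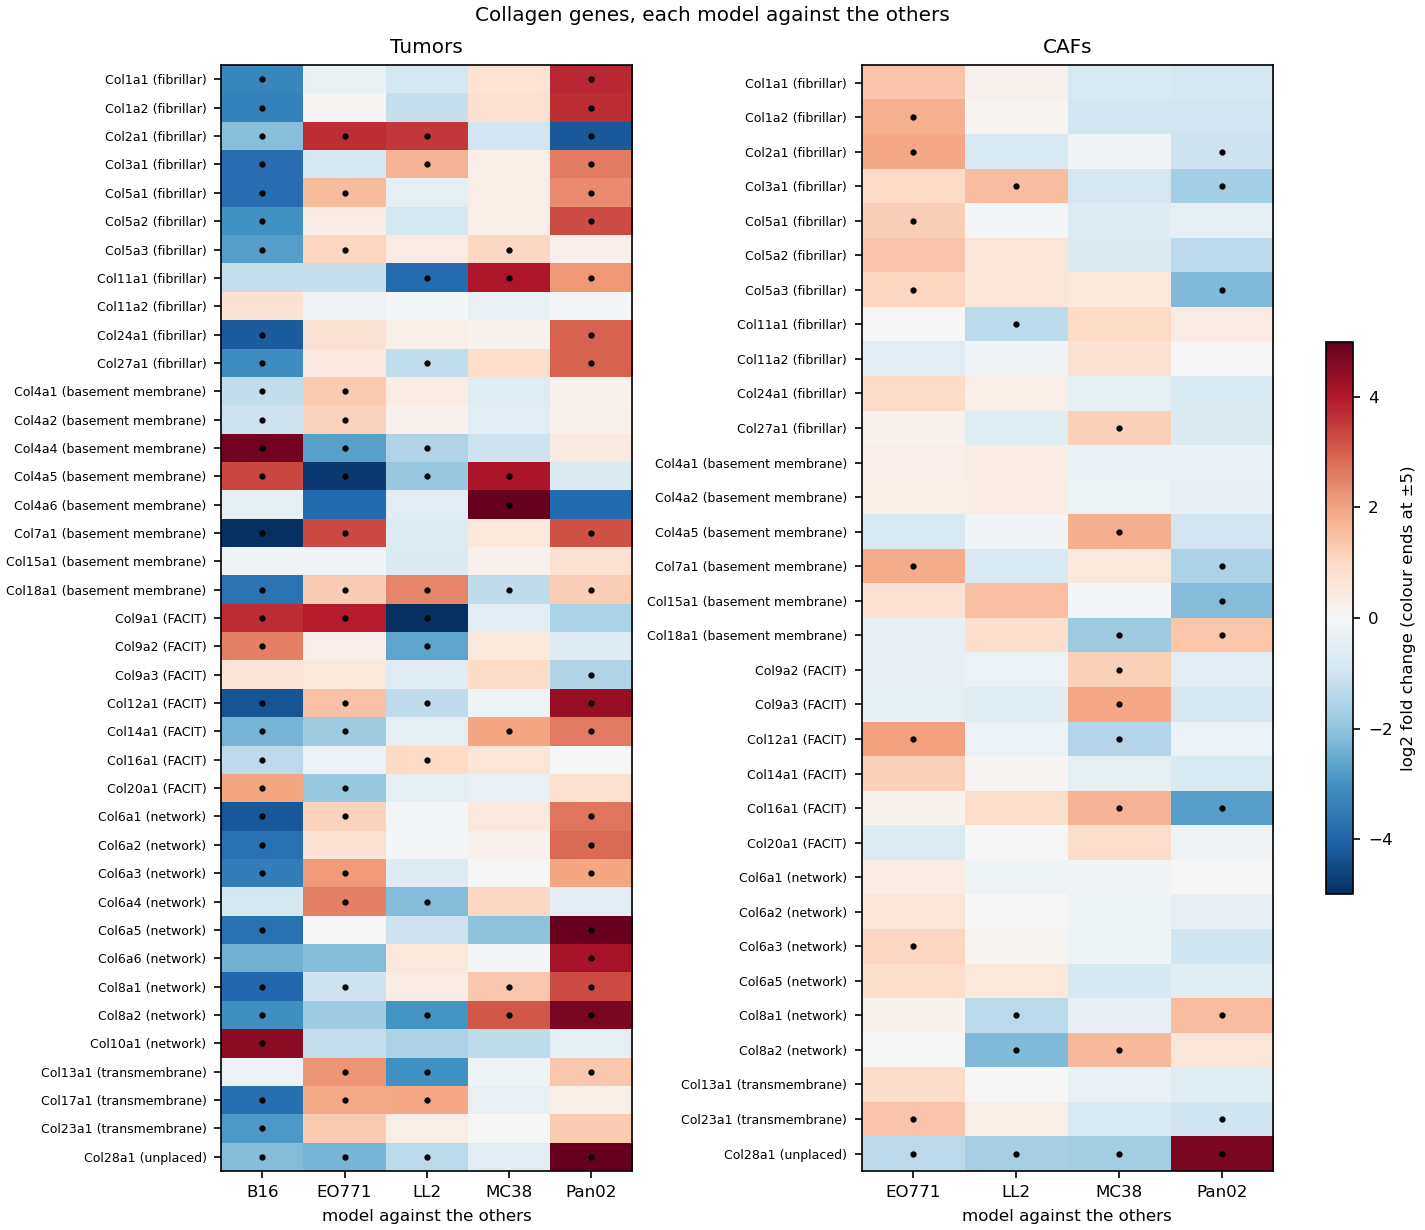
Log2 fold change of every tested collagen gene in each model relative to the others, for 39 members in tumors (left) and 32 in CAFs (right). Red is higher and blue lower, the colour scale ends at 5 either way, and a dot marks a call. The Pan02 column is mostly red and the B16 column mostly blue in tumors, and in CAFs the Pan02 column holds more blue than red.

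Of 11 fibrillar collagens tested, 8 were higher and 1 lower in Pan02 tumors, beside 18.8 and 7.92% of all genes. In B16 tumors none was higher and 9 were lower, beside 13.1 and 19.6%. The median log2 fold change of the 11 was 2.59 in Pan02 and -3.09 in B16. *Col1a1* (chromosome 11, 94936224 to 94953042, mm10) and *Col1a2* (chromosome 6, from 4505618 to 4541543) encode the chains of type I collagen, the main fibril of skin, bone and scar. *Col1a1* was at 178, 543 and 732 CPM in the B16 tumors, 1597, 2477 and 3388 in EO771, 2961, 1414 and 1100 in LL2, 5952, 1095 and 5989 in MC38 and 26480, 25351 and 20314 in Pan02. All Pan02 tumors lay above and all B16 tumors below the remaining tumors, and MC38 tumor 2 was as low as LL2 tumor 3. It was higher in Pan02 (3.77 ± 0.40, adjusted p = 3.5e-06, log2 fold change ± approximate standard error) and lower in B16 (-3.27 ± 0.59, adjusted p = 3.1e-04), while the values in EO771 (-0.32 ± 0.48, adjusted p = 0.60), LL2 (-0.88 ± 0.50, adjusted p = 0.18) and MC38 (0.69 ± 0.45, adjusted p = 0.22) did not pass. Between neighbours in the order of means, Pan02 and MC38 differed by 2.47 (adjusted p = 0.0041) and LL2 and B16 by 1.91 (adjusted p = 0.017), but MC38 and EO771 differed by 0.80 (adjusted p = 0.29) and EO771 and LL2 by 0.45 (adjusted p = 0.57). In these pairs of models 31.7, 32.2, 24.7 and 21.4% of all genes tested were called.

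*Col1a2* was at 89.2, 236 and 347 CPM in B16, 959, 1431 and 2053 in EO771, 1155, 648 and 471 in LL2, 3145, 520.4 and 3032 in MC38 and 11342, 11469 and 11071 in Pan02 tumors. It was higher in Pan02 (3.70 ± 0.40, adjusted p = 3.4e-06) and lower in B16 (-3.36 ± 0.59, adjusted p = 2.2e-04), and its values in EO771 (0.04 ± 0.46, adjusted p = 0.95), LL2 (-1.17 ± 0.50, adjusted p = 0.077) and MC38 (0.78 ± 0.44, adjusted p = 0.15) did not pass.

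*Col3a1* encodes the chain of type III collagen, which forms thin fibrils with type I in soft organs and young scars. Its transcript lies on chromosome 1, from 45311538 to 45349706 in mm10. It was at 85.2, 248 and 470.5 CPM in B16, 932, 1204 and 2114 in EO771, 8129, 3039 and 6023 in LL2, 3771, 892 and 3362 in MC38 and 6919, 10854 and 10271 in Pan02 tumors. LL2 tumor 1 exceeded Pan02 tumor 1, so the upper 2 models overlapped. *Col3a1* was higher in Pan02 (2.59 ± 0.41, adjusted p = 1.1e-04) and also in LL2 (1.71 ± 0.42, adjusted p = 0.0055), and lower in B16 (-3.82 ± 0.62, adjusted p = 1.1e-04). Its values in EO771 (-0.81 ± 0.50, adjusted p = 0.18) and MC38 (0.33 ± 0.46, adjusted p = 0.57) did not pass. Among neighbours in its order, EO771 and B16 differed by 2.40 (adjusted p = 0.0046), whereas Pan02 and LL2 differed by 0.71 (adjusted p = 0.35), LL2 and MC38 by 1.10 (adjusted p = 0.16) and MC38 and EO771 by 0.92 (adjusted p = 0.22). Of all genes tested 34.4% were called between EO771 and B16, 23.9% between Pan02 and LL2 and 20.5% between LL2 and MC38.

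**Figure D3:**
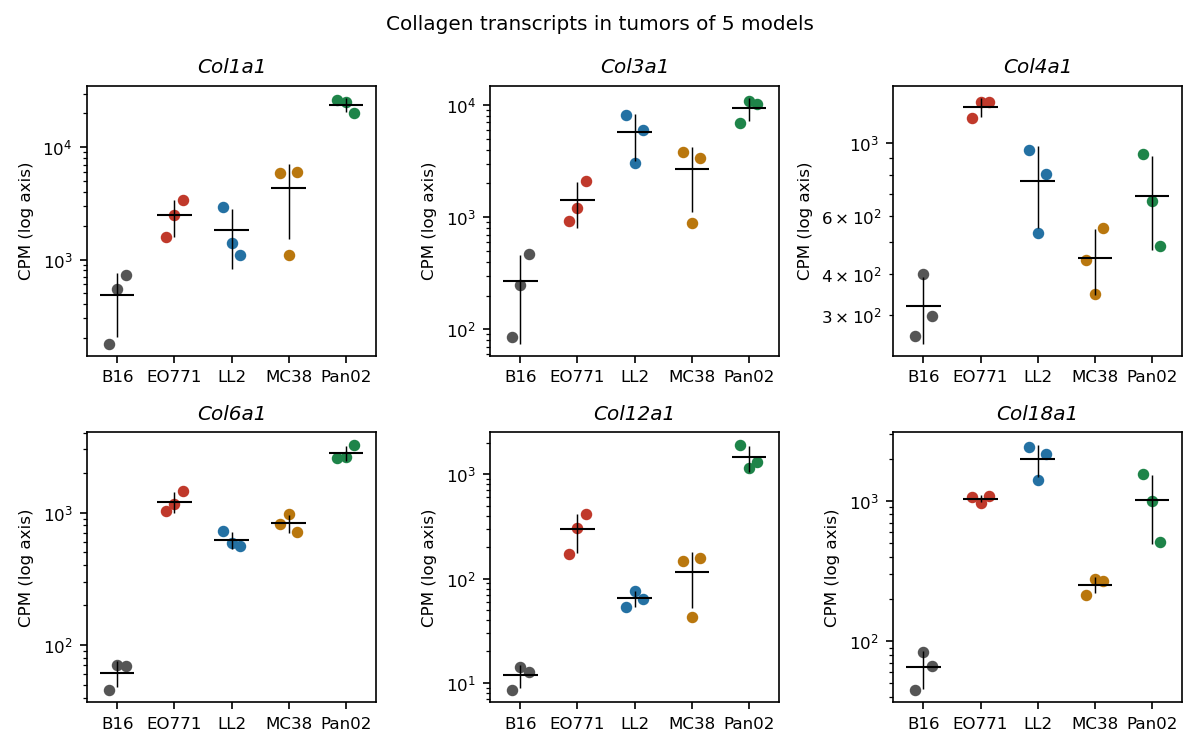
Levels of 6 collagen transcripts in each of the 15 tumors (y axis, TMM-scaled CPM on a log axis; x axis, model). Points are tumors, the bar is the mean and the vertical line the SD (n = 3). *Col1a1*, *Col6a1* and *Col12a1* are highest in all 3 Pan02 tumors, *Col4a1* in all 3 EO771 tumors and *Col18a1* in LL2 tumors by the mean.

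The proportion of type III to type I chains set LL2 tumors apart. Per length, *Col3a1* was 2.93, 2.29 and 5.84 times *Col1a1* in the 3 LL2 tumors, and at most 0.869 times in each of the 12 other tumors. The lowest ratio was 0.279, in Pan02 tumor 1. On the log2 scale the ratio in LL2 exceeded that of the other tumors by 2.61 (2-sided exact permutation test over 455 splits, p = 0.0022, the smallest possible, adjusted p = 0.027 over 25 tests of 5 ratios). In LL2 CAFs it was 1.68 and 2.16, in EO771 CAFs 0.749 and 0.801, in Pan02 CAFs 0.621 and 0.611 and in MC38 CAFs 0.670 and 1.26, and CAF ratios were not tested. Both LL2 CAF libraries were above the other 6.

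**Figure D4:**
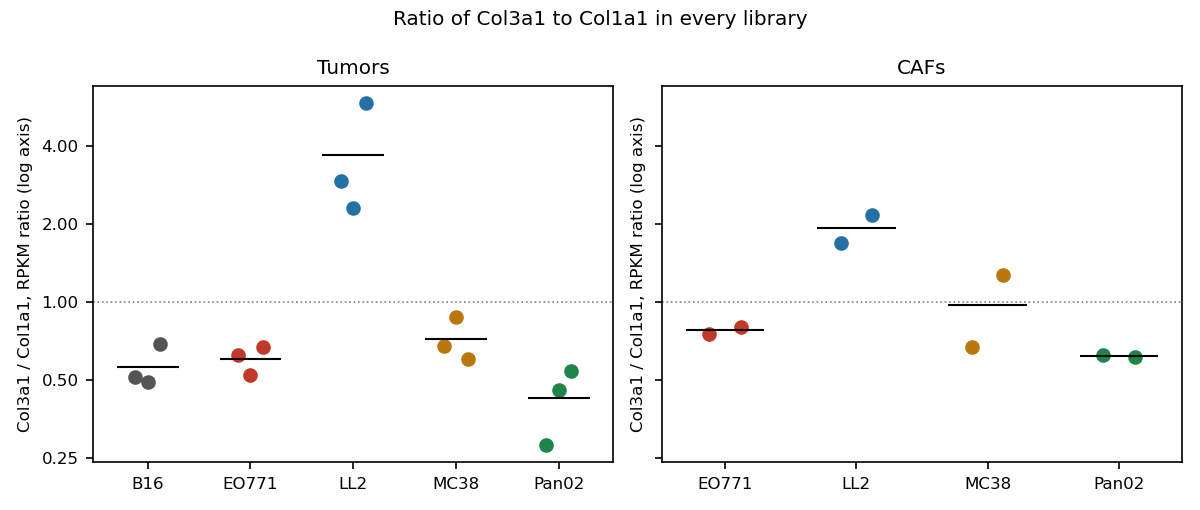
Ratio of *Col3a1* to *Col1a1* RPKM in every tumor (left) and CAF library (right), on a log axis, with 1 marked by a dotted line. Points are libraries and bars are means. LL2 tumors lie between 2.29 and 5.84 and LL2 CAFs at 1.68 and 2.16, above the libraries of all other models in the same set.

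Of the other chain ratios, that of *Col1a2* to *Col1a1* was 0.683, 0.657 and 0.689 in EO771 tumors and at most 0.620 in all others, a log2 difference of 0.35 (exact permutation p = 0.0022, adjusted p = 0.027). The ratio of *Col6a2* to *Col6a1* was 0.946, 1.11 and 1.15 in B16 tumors, 0.46 above the others on the log2 scale (exact permutation p = 0.0044, adjusted p = 0.037). The remaining 22 tests did not pass, among them all 5 of the ratio of *Col4a2* to *Col4a1*. With any EO771 or any LL2 tumor left out fewer splits exist and none of the 25 passed (adjusted p of the LL2 *Col3a1* ratio 0.069 to 0.092), while the LL2 difference was 2.22 without LL2 tumor 3 and 2.89 without LL2 tumor 2. The *Col6a2* to *Col6a1* test also lost its pass without any B16 tumor (adjusted p = 0.086 to 0.12).

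Type V collagen starts and regulates type I fibrils. *Col5a1* was at 51.2, 81.1 and 103 CPM in B16, 1267, 1650 and 1720 in EO771, 688, 285 and 523 in LL2, 908, 585 and 823 in MC38 and 3427, 2209 and 1602 in Pan02 tumors, and it was called higher in Pan02 and EO771 and lower in B16. *Col5a2*, its partner chain, was higher only in the Pan02 contrast and lower in B16. *Col5a3* did not share the Pan02 rise, with 396, 265 and 293 CPM there and 453, 529 and 517 CPM in EO771 tumors, and it was called higher in EO771 and MC38.

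Collagens known from cartilage showed other patterns at low levels. *Col2a1*, the main fibrillar collagen of cartilage, was at 14.9, 11.1 and 11.9 CPM in EO771 and 4.14, 19.9 and 10.7 CPM in LL2 tumors, and at most 1.27 CPM in any other tumor. Levels were higher in EO771 (3.70 ± 0.36, adjusted p = 2.0e-06) and LL2 (3.54 ± 0.36, adjusted p = 4.9e-06) and lower in Pan02 (-4.19 ± 0.63, adjusted p = 7.0e-05). The Pan02 value rests on 5.0, 1.0 and 1.5 counts in its tumors, so the size of that fold is uncertain. The 7 cartilage and bone genes chosen, none of them a collagen, summed to 435 to 453 CPM in EO771 tumors, nearly all of it the transcription factor *Sox9*, and to at most 220.0 CPM elsewhere. The cartilage proteoglycan gene *Acan* was low but highest in EO771 tumors, at 1.56, 1.53 and 2.79 CPM. It was at 0 in the LL2 tumors and at most 0.831 CPM in the remaining tumors. The part of such cells in the *Col2a1* level was not tested. *Col11a1*, which joins type II fibrils and is known from activated fibroblasts, was at 10.8, 9.21 and 24.5 CPM in MC38 and 9.40, 4.92 and 1.32 CPM in Pan02 tumors and at most 1.15 CPM in the others (4.03 ± 0.41, adjusted p = 3.8e-06 in MC38). *Col24a1* and *Col27a1*, minor fibrillar chains, were both higher in Pan02 and lower in B16 tumors.

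Of 8 basement membrane collagens tested, 2 were higher and none lower in Pan02 tumors, beside 18.8 and 7.92% of all genes. Their median log2 fold change there was 0.32. In EO771 tumors 4 were higher and 2 lower, beside 9.71 and 13.7%. *Col4a1* and *Col4a2*, whose products form the common type IV network around vessels and under epithelia, start head to head on chromosome 8 with an overlap of 22 bases. *Col4a1* was at 259.6, 401 and 297 CPM in B16, 1186, 1329 and 1327 in EO771, 951, 532 and 805 in LL2, 439.8, 349 and 550.4 in MC38 and 921, 664 and 486 in Pan02 tumors. The EO771 tumors were above all others, and B16 and MC38 tumors overlapped at the low end. *Col4a1* was higher in EO771 (1.29 ± 0.19, adjusted p = 6.7e-05) and lower in B16 (-1.21 ± 0.22, adjusted p = 3.3e-04), and its values in LL2 (0.36 ± 0.20, adjusted p = 0.17), MC38 (-0.61 ± 0.21, adjusted p = 0.028) and Pan02 (0.18 ± 0.20, adjusted p = 0.47) were not called, in MC38 because of the size of the fold. Its 4 neighbouring pairs of models differed by 0.14 to 0.75 on the log2 scale, all under the fold needed for a call, with the lowest adjusted p between EO771 and LL2 (0.031), while 34.2% of all genes were called between MC38 and B16, the lowest pair. *Col4a2* was higher in EO771 (1.15 ± 0.21, adjusted p = 3.7e-04) and lower in B16 (-1.04 ± 0.24, adjusted p = 0.0018), the latter falling below a log2 change of 1 without B16 tumor 1 or 3, LL2 tumor 1, MC38 tumor 3 or Pan02 tumor 1 (-0.97 to -0.89). In Pan02 the values of *Col4a1* and *Col4a2* turned negative without tumor 1, to -0.11 and -0.08, neither of them called. In the same tumors 6 endothelial genes summed to 237 to 282 CPM in EO771, 163 to 309.9 CPM in MC38 and 171 to 185 CPM in Pan02. They summed to 84.5 to 180 CPM in LL2 and 87.9 to 167 CPM in B16 tumors, and their part in the *Col4a1* levels was not tested.

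The rarer type IV chains had patterns of their own. *Col4a5* and *Col4a6* lie head to head on the X chromosome with 1342 bases between their starts, whose upstream stretches are printed above. *Col4a6* was at 7.05, 10.8 and 6.74 CPM in MC38 tumors, and 10 of the 12 other tumors held no read of it, the highest level among them being 0.136 CPM. It was called in MC38 (adjusted p = 1.4e-06), and no fold change is given because it would rest on 3.5 counts in the other 12 tumors. *Col4a5* was at 26.1, 30.2 and 23.7 CPM in MC38 and 18.9, 20.3 and 13.8 CPM in B16 tumors, at most 2.53 CPM in Pan02 and LL2 and at most 0.24 CPM in EO771 tumors. It was higher in MC38 (4.09 ± 0.20, adjusted p = 7.7e-09) and B16 (3.34 ± 0.21, adjusted p = 1.1e-08) and lower in EO771 (-4.79 ± 0.38, adjusted p = 2.6e-07) and LL2 (-1.90 ± 0.30, adjusted p = 1.8e-04). The EO771 value rests on 4.5, 2.0 and 1.0 counts in its tumors, so the size of that fold is uncertain. B16 tumors thus had *Col4a5* without its neighbour, while MC38 tumors had both. *Col4a4*, a chain known from the kidney filter, was at 11.7, 8.27 and 9.95 CPM in B16 tumors and at most 1.38 CPM elsewhere (4.82 ± 0.34, adjusted p = 4.3e-08), and *Col4a3*, which starts 71 bases away on the other strand, did not exceed 0.40 CPM in any tumor. In MC38 CAFs *Col4a5* was at 3.50 and 7.21 RPKM and *Col4a6* at 0.980 and 1.85 RPKM, higher in the library with fewer fibroblast transcripts.

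*Col7a1* encodes the anchoring fibril that ties basement membrane to dermis. It was at 1.47, 3.11 and 1.82 CPM in B16, 303, 501 and 570.0 in EO771, 63.5, 44.3 and 42.4 in LL2, 124, 97.2 and 71.5 in MC38 and 847, 248 and 182 in Pan02 tumors, with Pan02 tumor 1 highest of all. It was higher in EO771 (3.31 ± 0.32, adjusted p = 2.0e-06) and had the lowest log2 fold change of the family in B16 (-6.33 ± 0.59, adjusted p = 6.6e-07). *Col18a1*, the precursor of endostatin in vessel and epithelial basement membranes, was at 2410, 1411 and 2152 CPM in LL2 tumors, 1070, 964 and 1075 in EO771, 1544, 997 and 506 in Pan02, 215, 276 and 268 in MC38 and 44.8, 84.0 and 66.3 in B16. Per length it was the second most abundant collagen of LL2 tumors at 398 RPKM, below *Col3a1* at 1040 and above *Col1a1* at 311 RPKM. *Col18a1* was higher in LL2 (2.46 ± 0.23, adjusted p = 2.0e-06) and lower in MC38 (-1.27 ± 0.28, adjusted p = 0.0021). *Col15a1*, a related chain of vessel basement membranes, had 35.2 to 135 CPM over all tumors and was among the 2 members that did not differ among the models (adjusted p = 0.060).

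Of 7 FACIT collagens tested, 2 were higher and 1 lower in Pan02 tumors, beside 18.8 and 7.92% of all genes. In B16 tumors 3 were higher and 3 lower, beside 13.1 and 19.6%. *Col12a1* and *Col14a1*, which decorate type I fibrils, were the members called higher in Pan02, and *Col9a1*, *Col9a2* and *Col20a1* were the members called higher in B16. *Col12a1* was at 8.50, 14.1 and 12.7 CPM in B16, 172, 307 and 414 in EO771, 52.9, 76.04 and 64.1 in LL2, 148, 42.6 and 157 in MC38 and 1919, 1152 and 1312 in Pan02 tumors. Groups of EO771 and MC38 tumors did not overlap, and MC38 tumor 2 lay below the LL2 tumors. Its log2 fold change in B16 was -4.33 ± 0.45, adjusted p = 1.9e-06. *Col14a1* was at 6.09, 7.30 and 9.85 CPM in EO771, 2.55, 3.48 and 10.4 in B16, 19.8, 11.4 and 17.2 in LL2, 60.3, 15.02 and 112 in MC38 and 29.1, 138 and 99.8 in Pan02 tumors. It was called lower in EO771 (-1.79 ± 0.61, adjusted p = 0.024), a call lost without any 1 of the 3 EO771 tumors (adjusted p = 0.098, 0.081 and 0.052). *Col16a1*, found near basement membranes and in fibrils, was the most even of the abundant FACIT members, from 98.5 CPM in a B16 tumor to 468 CPM in an LL2 tumor. The members called higher in B16 were at low levels, with *Col9a1* at 0.540, 0.684 and 2.19 CPM, *Col9a2* at 1.33, 1.34 and 1.82 CPM and *Col20a1* at 2.70, 3.67 and 2.37 CPM. The level of *Col9a1* in EO771 tumors, 1.01, 1.70 and 1.48 CPM, had a higher mean than in B16, 1.40 against 1.14 CPM, and was called higher as well (3.93 ± 0.55, adjusted p = 9.4e-05). LL2 tumors held no read of *Col9a1*, so the size of that fold is uncertain.

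Of 9 network collagens tested, 7 were higher and none lower in Pan02 tumors, beside 18.8 and 7.92% of all genes. In B16 tumors 1 was higher and 6 lower, beside 13.1 and 19.6%. The median log2 fold change of the 9 was 2.81 in Pan02 and -3.45 in B16. *Col6a1*, *Col6a2* and *Col6a3* encode the common chains of type VI collagen, whose filaments link cells to the matrix. *Col6a1* was at 45.6, 70.8 and 69.4 CPM in B16, 1021, 1159 and 1447 in EO771, 727, 585 and 561 in LL2, 823, 971 and 714 in MC38 and 2572, 2624 and 3255 in Pan02 tumors. All B16 tumors were below all others (-4.22 ± 0.21, adjusted p = 1.0e-09). For *Col6a3* the EO771 tumors reached the Pan02 range, at 1126, 1402 and 1681 against 1650, 1050 and 1145 CPM. In MC38 tumor 2, where *Col1a1* was low, *Col6a1* and *Col6a2* were the highest among the MC38 tumors, at 971 and 635 CPM. *Col6a5*, a chain that can take the place of the alpha 3 chain, was at 1.12, 33.2 and 106 CPM in Pan02 and at most 2.00 CPM elsewhere (6.81 ± 0.74, adjusted p = 4.0e-06). Pan02 tumor 1 was within the range of the other models. *Col8a1* and *Col8a2*, chains of a short-chain network around vessels, were both higher in Pan02 and MC38 tumors, *Col8a2* with 16.9, 82.04 and 41.5 CPM in Pan02 (4.72 ± 0.59, adjusted p = 1.5e-05) and 16.1, 1.96 and 39.99 CPM in MC38. *Col8a2* was at 0.0679, 0.235 and 1.60 CPM in LL2 (-2.98 ± 0.94, adjusted p = 0.021), a call lost without LL2 tumor 1 or 2 (adjusted p = 0.078 and 0.095). *Col10a1*, known from hypertrophic cartilage, was at 1.92, 2.27 and 1.32 CPM in B16 and at most 0.18 CPM elsewhere.

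Transmembrane collagens were low throughout. *Col13a1*, found at cell adhesions and the neuromuscular junction, was at 7.79, 12.99 and 11.98 CPM in EO771 tumors (2.19 ± 0.33, adjusted p = 9.5e-05) and 0.578, 0.678 and 0.470 CPM in LL2 tumors (-3.02 ± 0.49, adjusted p = 2.4e-04). Its highest single level, 13.7 CPM, was in Pan02 tumor 1, above all EO771 tumors. Pan02 tumors 2 and 3 held 47.5 and 54.5 counts of it, against 281 counts in Pan02 tumor 1. *Col17a1* encodes the hemidesmosome collagen of basal keratinocytes. Its transcript had 114.5, 61.0 and 56.0 counts in EO771 tumors, against 11.5, 14.0 and 244.5 counts in LL2 tumors 1, 2 and 3. It was at 0.781, 0.730 and 15.3 CPM in LL2 tumors (1.95 ± 0.68, adjusted p = 0.035), so that 1 tumor carried the call, and without LL2 tumor 3 the value was -0.90 (adjusted p = 0.26). That tumor also held 89.2 CPM of 6 keratinocyte genes, with *Krt5* and *Krt14* the highest, against 5.33 and 3.73 CPM in LL2 tumors 1 and 2, and the part of skin in the *Col17a1* value was not tested. *Col23a1* was at 52.3, 4.99 and 2.76 CPM in Pan02 tumors, again with tumor 1 apart from the other two, and was called lower in B16. *Col28a1*, a collagen related to type VI and known from peripheral nerve, was at 44.5, 55.6 and 70.2 CPM in Pan02 tumors and at most 1.78 CPM in any other tumor (6.37 ± 0.30, adjusted p = 2.3e-09). All 3 Pan02 tumors were thus far above the 12 others.

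For CAFs the question was whether fibroblasts of different tumors carry different collagen transcripts. Log2(RPKM + 1) was tested with limma, with adjustment over 13598 genes, and fold changes on this scale understate changes of low genes. Of the 44 members, 32 reached 1 RPKM in at least 2 libraries and were tested. Levels differed among the 4 models for 24 of them, a share of 75.0% beside 80.4% of all genes tested. *Col1a1*, *Col1a2*, *Col5a2*, *Col4a1*, *Col4a2*, *Col6a1*, *Col6a2* and *Col14a1* were the 8 that did not pass, among them both chains of type I and the common chains of type IV, while of the common chains of type VI *Col6a3* passed (adjusted p = 0.013).

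In EO771 CAFs 8 members were higher and 1 lower than in the mean of the others, beside 8.05 and 7.06% of all genes, with a median log2 fold change of 0.65 against -0.02. LL2 CAFs had 1 higher and 4 lower, beside 3.89 and 5.13%, and 2 and 4 when scaled without collagens. MC38 CAFs had 6 higher and 3 lower, beside 10.9 and 9.87%. Pan02 CAFs had 3 higher and 7 lower, beside 9.73 and 8.41%, with a median of -0.66. Scaling without collagens moved all genes by -0.12 in EO771 and by 0.12 in Pan02 CAFs and turned the split over all genes in EO771 from 1094 higher and 960 lower to 873 and 1214. With only 2 libraries per model, leaving out 1 library left its model with 1, and the number of members called varied in every model. The most calls in EO771 and MC38 came without MC38 replicate 1, and the most in Pan02 without MC38 replicate 2. The fewest in EO771 and LL2 came without replicate 1 of that model. Shares of all genes are not given for these fits, so such changes are no separate result about collagens.

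*Col1a1* in CAFs was at 3773 and 3362 RPKM in EO771, 2260 and 1595 in LL2, 2771 and 467 in MC38 and 1535 and 795 in Pan02. Both EO771 libraries were above the rest, and MC38 replicate 2 was the lowest. No contrast was called, with 1.41 ± 0.62, adjusted p = 0.091 in EO771, 0.20 ± 0.62, adjusted p = 0.83 in LL2, -0.78 ± 0.62, adjusted p = 0.31 in MC38 and -0.84 ± 0.62, adjusted p = 0.29 in Pan02. The sign in LL2 turned without MC38 replicate 2 or LL2 replicate 1, and that in MC38 without its replicate 2 (0.50, adjusted p = 0.24). *Col1a2* was at 2474 and 2230 RPKM in EO771, 1161 and 872 in LL2, 1308 and 249 in MC38 and 834 and 386 in Pan02. It was called higher in EO771 (1.77 ± 0.59, adjusted p = 0.038), a call lost without either EO771 or either LL2 library or without Pan02 replicate 2 (adjusted p = 0.068 to 0.17), and its values in LL2 (0.14 ± 0.59, adjusted p = 0.87), MC38 (-0.95 ± 0.59, adjusted p = 0.20) and Pan02 (-0.96 ± 0.59, adjusted p = 0.20) did not pass.

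*Col3a1* was at 3799 and 3443 RPKM in LL2, 2827 and 2692 in EO771, 1855 and 589.7 in MC38 and 954 and 486 in Pan02 CAFs. The LL2 libraries were above all others. *Col3a1* was higher in LL2 (1.53 ± 0.45, adjusted p = 0.036), a call lost without any EO771 or LL2 library or Pan02 replicate 2 (adjusted p = 0.070 to 0.20), and lower in Pan02 (-1.68 ± 0.45, adjusted p = 0.016), lost without Pan02 replicate 2 (adjusted p = 0.15). The values in EO771 (1.01 ± 0.45, adjusted p = 0.095) and MC38 (-0.86 ± 0.45, adjusted p = 0.14) did not pass. *Col5a3* was at 38.3 and 17.1 RPKM in Pan02 CAFs and at least 83.4 RPKM in each of the 6 other libraries (-2.21 ± 0.31, adjusted p = 8.9e-04). None of the 9 pairs of neighbouring models for *Col1a1*, *Col3a1* and *Col4a1* was called in CAFs, but 4 were without MC38 replicate 1 and 2 without MC38 replicate 2. Of all genes tested 13.3% were called between EO771 and LL2, 20.3% between LL2 and MC38, 26.8% between EO771 and MC38 and 29.8% between MC38 and Pan02 CAFs.

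**Figure D5:**
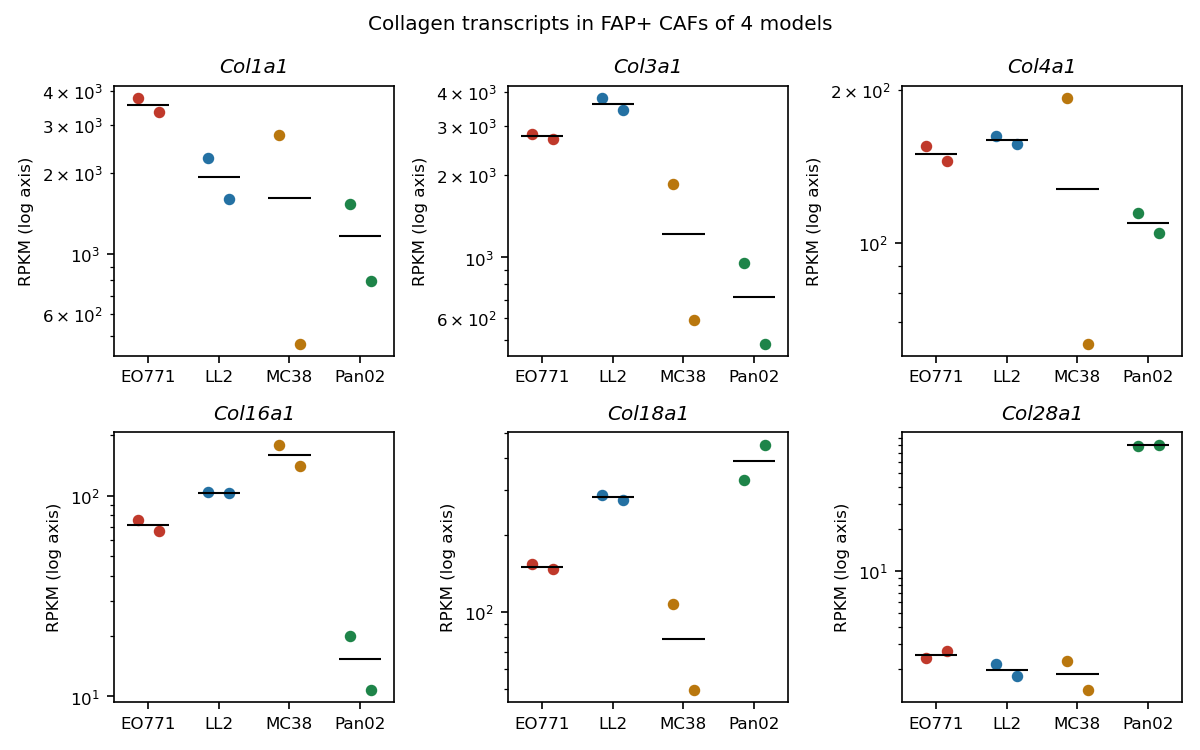
Levels of 6 collagen transcripts in each of the 8 CAF libraries (y axis, RPKM on a log axis; x axis, model). Points are libraries and bars are means of 2. *Col28a1* is at 79.02 and 80.0 RPKM in Pan02 CAFs and at most 2.70 RPKM in the other 6 libraries, and *Col16a1* is lowest in both Pan02 libraries.

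Of the basement membrane collagens, *Col4a1* was the steadiest, at 155 and 145 RPKM in EO771, 163 and 156 in LL2, 193 and 63.5 in MC38 and 114 and 105 in Pan02 CAFs. Its log2 fold changes lay between -0.34 and 0.38 and those of *Col4a2* between -0.43 and 0.38, and none passed (adjusted p from 0.33 to 0.56). Without MC38 replicate 2 both turned positive in MC38, at 0.48 (adjusted p = 0.011) and 0.54 (adjusted p = 0.0083), still under the fold needed for a call. *Col18a1* was higher in Pan02 CAFs, at 328 and 449 RPKM (1.39 ± 0.27, adjusted p = 0.0044), and lower in MC38, at 108 and 49.5 RPKM (-1.78 ± 0.27, adjusted p = 0.0012), with 153 and 147 RPKM in EO771 and 285 and 274 RPKM in LL2. *Col7a1* was at 119 and 66.8 RPKM in EO771 CAFs (1.84 ± 0.23, adjusted p = 6.4e-04) and at most 46.5 RPKM elsewhere. *Col15a1* was lower in Pan02, at 12.7 and 6.21 RPKM (-2.15 ± 0.51, adjusted p = 0.0096, lost without replicate 2 at adjusted p = 0.091), though MC38 replicate 2 was at 12.8 RPKM as well. *Col4a5* was higher in MC38 (1.81 ± 0.21, adjusted p = 3.3e-04).

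Among FACIT collagens, *Col16a1* was at 179 and 141 RPKM in MC38 CAFs (1.70 ± 0.22, adjusted p = 4.5e-04) and 19.98 and 10.8 RPKM in Pan02 CAFs (-2.76 ± 0.22, adjusted p = 5.4e-05), with EO771 and LL2 between them. Unlike *Col1a1*, it stayed high in the MC38 library with few fibroblast transcripts. *Col12a1* was at 142 and 93.9 RPKM in EO771 CAFs (2.06 ± 0.52, adjusted p = 0.013) and 36.6 and 8.08 RPKM in MC38 CAFs (-1.48 ± 0.52, adjusted p = 0.04). The EO771 call was lost without either EO771 library (adjusted p = 0.11 and 0.053), and the MC38 call without 6 single libraries, MC38 replicate 2 among them (-0.46, adjusted p = 0.32). *Col9a3*, a chain of cartilage type IX collagen, was at 4.56 and 4.82 RPKM in MC38 CAFs and at most 0.67 RPKM elsewhere (1.92 ± 0.11, adjusted p = 2.7e-05). Its exons share 6.07% of their bases with *Tcfl5*, the largest overlap of any member with another gene.

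Of the 6 network collagens tested in CAFs, *Col6a3*, *Col6a5*, *Col8a1* and *Col8a2* differed among the models (adjusted p = 0.013, 0.0015, 0.025 and 0.015). *Col6a3*, named with *Col6a5* after its values were seen, was at 290.0 and 226 RPKM in EO771, 165 and 149 in LL2, 176 and 90.98 in MC38 and 100.1 and 74.1 in Pan02 CAFs. It was called higher in EO771 (1.09 ± 0.26, adjusted p = 0.0097), a call lost without EO771 replicate 1 (0.91, adjusted p = 0.10), and the change was under 1 without MC38 replicate 2 (0.93) and when scaled without collagens (0.95). *Col6a5*, a further type VI chain, was low, at 1.79 and 1.63 RPKM in EO771, 1.75 and 0.923 in LL2, 0.221 and 0.0470 in MC38 and at most 0.30 in Pan02 CAFs, and was not called in any model. *Col8a1* was at 63.7 and 44.8 RPKM in Pan02 CAFs (1.56 ± 0.42, adjusted p = 0.016, lost without replicate 1 at adjusted p = 0.12) and 11.8 and 10.3 RPKM in LL2 CAFs (-1.35 ± 0.42, adjusted p = 0.043, lost without any EO771, LL2 or Pan02 library, adjusted p = 0.058 to 0.23). *Col8a2* was at 0.352 and 0.132 RPKM in LL2 CAFs (-2.22 ± 0.49, adjusted p = 0.013, lost without either LL2 library, adjusted p = 0.088 and 0.12) and 18.6 and 3.23 RPKM in MC38 CAFs. *Col6a1* and *Col6a2* stayed within 352 to 632 and 248 to 627 RPKM in all 8 libraries. *Col2a1* was the low cartilage chain called higher in EO771 CAFs, at 4.19 and 3.47 RPKM (1.94 ± 0.14, adjusted p = 7.0e-05). *Col28a1* had the largest change of any member in CAFs, at 79.02 and 80.0 RPKM in Pan02 (4.70 ± 0.14, adjusted p = 1.2e-06) and at most 2.70 RPKM elsewhere. The other 3 models, which lay together at 1.42 to 2.70 RPKM, were each set against a mean that held Pan02, so their lower calls (-1.31 in EO771, -1.64 in LL2 and -1.75 in MC38) are no separate result.

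Tumors and CAFs of the same model were set side by side over the 4 shared models. Of 29 members that reached a mean of 1 RPKM in both sets, 16 had their highest mean in Pan02 tumors, but 3 had it in Pan02 CAFs and 16 in EO771 CAFs. The model with the highest mean was the same in both sets for 11 members, 6 of them in EO771, 3 in MC38 and 2 in Pan02, a share of 37.9% beside 55.9% of the 13305 genes that reached the same levels. Leaving out 1 library gave 8 to 12 such members. The EO771 members were *Col2a1*, *Col5a3*, *Col7a1*, *Col6a3*, *Col13a1* and *Col23a1*, those of MC38 *Col11a1*, *Col4a5* and *Col4a6*, and those of Pan02 *Col8a1* and *Col28a1*. For 9 members the highest tumor mean and the lowest CAF mean were both in Pan02, a share of 31.0% beside 3.81% of all these genes, with *Col1a1*, *Col1a2* and *Col3a1* among them. Per length, *Col1a1* had a mean of 4092 RPKM in Pan02 tumors and 1165 RPKM in Pan02 CAFs, and 423 RPKM in EO771 tumors and 3567 RPKM in EO771 CAFs. *Col18a1*, which is highest in LL2 tumors, was at 279 RPKM in LL2 CAFs and 388 RPKM in Pan02 CAFs. The sets were normalized separately, tumors by TMM and CAFs by the authors' RPKM, so no test was made across them.

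Genes that make or bind collagen were counted from lists chosen together with the members. Of 28 collagen processing genes, which encode prolyl and lysyl hydroxylases, the chaperone *Serpinh1*, procollagen proteases and lysyl oxidases, 11 were higher and 1 lower in Pan02 tumors, beside 18.8 and 7.92% of all genes, and 1 higher and 12 lower in B16 tumors, beside 13.1 and 19.6%. They included the crosslinking enzyme *Lox*, with a log2 fold change of 3.18 in Pan02 and -3.08 in B16, and *P4ha3*, a prolyl hydroxylase subunit, with 2.42 and -4.32. *Serpinh1*, which folds procollagen, had 0.09 and 0.07, neither of which passed (adjusted p = 0.37 and 0.46). In Pan02 CAFs none of 26 tested processing genes was higher and 9 were lower, beside 9.73 and 8.41% of all genes, *Serpinh1* (-1.24) and *Plod2* (-1.22) among them, and 5 were higher and 1 lower in EO771, beside 8.05 and 7.06%. LL2 CAFs had 4 higher, *Plod2* among them (1.96), and none lower, beside 3.89 and 5.13%, and MC38 CAFs had 1 higher and 3 lower, beside 10.9 and 9.87%. In the other tumors 4 processing genes were higher and 4 lower in EO771, beside 9.71 and 13.7% of all genes, 6 higher and 1 lower in LL2, beside 8.51 and 8.30%, and 2 higher and none lower in MC38, beside 11.2 and 8.23%. Of 10 collagen receptor genes 9 were tested in tumors, where 3 were higher and none lower in Pan02 and none higher and 4 lower in B16, including *Mrc2*, the endocytic collagen receptor, with 2.38 and -3.41. EO771 tumors had none higher and 3 lower, LL2 tumors 2 higher and 1 lower, and MC38 tumors 1 of each, beside the shares of all genes just given. In CAFs 7 were tested, of which *Mrc2* (-1.84) and *Itga1* were lower in Pan02, beside 8.41% of all genes. *Itgb1* was lower in MC38, beside 9.87%, and none was higher in any model.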

How the data were processed

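Poly(A)-selected RNA was sequenced from 15 whole tumors and 8 sorted CAF samples. The authors aligned reads to mm10 with STAR 2.5.0c and counted them over exons of RefSeq transcripts with HOMER. For tumors they deposited unscaled estimated counts of 40458 transcripts in steps of 0.5, and for CAFs they deposited RPKM. The members and all gene lists were chosen with earlier results of these data known. Reads of both strands were counted together, and 13 members shared exon bases with another gene, none over 10% of its length. Tumor counts were rounded and fitted with edgeR 4.0.16 (filterByExpr, TMM, quasi-likelihood test, all 15 tumors in 1 fit, no covariates). CAF values were tested with limma 3.58.1 (variance trend, log2(RPKM + 1), at least 1 RPKM in at least 2 libraries). Each model was contrasted with the mean of the logs of the other models, and p-values were adjusted by Benjamini-Hochberg over all genes tested. Unless named SD, values after ± are standard errors in CAFs and approximate standard errors in tumors. Those of tumors are the size of the log2 fold change divided by the square root of the quasi-likelihood F statistic. Chain ratios were tested by 2-sided exact permutation of tumors. Test values are given for *Col1a1*, *Col3a1*, *Col4a1*, *Col1a2* and *Col4a2* in every contrast, and for up to 3 called members with the largest rise and 3 with the largest fall in each, with a mean of at least 1 RPKM. Other values were named after they were seen. Depth limits only the counting error of each value. CAF reads were recovered from RPKM steps and transcript lengths. The 2 transcripts naming no gene took at most 0.000852% of a library, and 5 columns of other samples were not used. Alternatives were DESeq2 1.42.0, other scalings, filters, pseudocounts and transcripts, a replicate block and leaving out each library. R 4.3.3 and Python 3.11.15 were used. Fits were also run on simulated data, in which every CAF gene had the same spread. That run does not give the power or error rate of the CAF tests reported here.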

Additional observations from a re-analysis of the deposited data

Results flagged for a closer look

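*Col14a1*, the FACIT collagen of dense connective tissue, was lowest in EO771 among the tumors of the 4 models with CAFs and highest in EO771 among the CAFs. On the log2 scale the mean of EO771 tumors was at -2.85 relative to the mean of LL2, MC38 and Pan02 tumors, while that of EO771 CAFs was at 1.08 relative to the CAFs of those models. These are log2 ratios of plain means, not the contrasts of mean logs used in the tests. Single tumors, such as those at 112 CPM in MC38 and 138 CPM in Pan02, weigh more in them. All 3 EO771 tumors (6.09, 7.30 and 9.85 CPM) were below all 9 tumors of those models, and both EO771 CAF libraries (48.9 and 46.5 RPKM) were above the other 6. The difference between tumors and CAFs was not tested, since the sets were normalized separately. *Col14a1* did not pass among the CAF models (limma, adjusted p = 0.16) nor in the EO771 CAF contrast (1.21, adjusted p = 0.069), which passed without MC38 replicate 1 (1.55, adjusted p = 7.7e-04) and in the fit blocked by replicate (adjusted p = 0.033). The edgeR call in EO771 tumors was lost without any 1 EO771 tumor (adjusted p = 0.052 to 0.098), and B16 tumors, which have no CAFs here, had a lower mean than EO771 tumors, 5.49 against 7.75 CPM.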

How the results depend on the processing

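Of 1099 alternative fold changes of 50 named tumor results, 1066 kept direction and side of the threshold, as did 593 of 652 in CAFs and 372 of 400 chain ratios. Where a call changed, the cause was not tested. Without the fold threshold the members called rose to 13 in MC38 tumors and to 16, 10, 14 and 18 in EO771, LL2, MC38 and Pan02 CAFs. Dropping the threshold can only add calls, for all genes as for members, and the share of all genes without it is not given here. A pseudocount of 0.1 gave 15 in EO771 CAFs, beside 1446 higher and 1711 lower of all 13598 genes. No filter gave 3 in LL2 CAFs, beside 494 higher and 663 lower of 22987 genes. An edgeR fit to recovered CAF reads, chosen after seeing the data, called 20, 8, 17 and 17 members. Of all 15478 genes that fit called 1892 higher and 1809 lower in EO771, and 1055 and 1066 in LL2 CAFs. It called 2566 and 1976 in MC38 and 2035 and 1934 in Pan02 CAFs. Between neighbouring CAF models 1 pair was called when scaled without collagens. As a share of summed RPKM collagens took 0.0880, 0.610, 0.608, 0.636 and 2.42% in B16, EO771, LL2, MC38 and Pan02 tumors, and as a share of recovered reads, also chosen after seeing the data, 7.60, 5.93, 4.09 and 2.94% in EO771, LL2, MC38 and Pan02 CAFs. Leaving out 1 library gave 2 to 14 members in EO771 CAFs, 1 to 6 in LL2, 7 to 17 in MC38, 0 to 4 neighbouring CAF pairs and 0 to 4 chain ratios.

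Signs turned when 1 library was left out, over ranges of -0.27 to 0.28 for *Col1a2* in EO771 tumors (negative without B16 tumor 1, EO771 tumor 3, LL2 tumor 3 or MC38 tumor 2), -0.029 to 0.44 for *Col4a2* and -0.90 to 2.48 for *Col17a1* in LL2 tumors (without tumors 1 and 3), and -0.11 to 0.39 for *Col4a1* and -0.077 to 0.38 for *Col4a2* in Pan02 tumors (without tumor 1). In CAFs the ranges were -0.22 to 0.63 for *Col1a1* and -0.26 to 0.54 for *Col1a2* in LL2 (negative without LL2 replicate 1 or MC38 replicate 2, and *Col1a2* also without Pan02 replicate 2), and in MC38 -2.06 to 0.50 for *Col1a1*, -1.11 to 0.48 for *Col4a1*, -2.15 to 0.25 for *Col1a2* and -1.04 to 0.54 for *Col4a2* (positive without MC38 replicate 2). Log2 ratios ranged from -0.073 to 0.0093 for *Col6a2* to *Col6a1* in LL2 (0.029 with the longest transcript), -0.37 to 0.033 for *Col3a1* to *Col1a1* and -0.61 to 0.23 for *Col5a2* to *Col5a1* in MC38, and -0.17 to 0.0068 for *Col1a2* to *Col1a1* in Pan02 tumors.

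Whether shared replicate numbers pair the samples was not settled. In tumors 9 of 30 same-number and 13 of 60 different-number correlations were over 0.1. In CAFs these were 6 of 12 and 2 of 12. With 2 libraries per model the deviations of CAF libraries mirror each other, so the CAF values cannot decide it. With the replicate number as a block 36 members differed among tumor models. In B16, EO771, LL2, MC38 and Pan02 tumors 31, 20, 15, 8 and 23 were called. In CAFs 26 differed, 12, 6, 9 and 11 were called in EO771, LL2, MC38 and Pan02, and 1 neighbouring pair was called. Shares of all genes are not given for the blocked fits, so these counts are no separate result about collagens. Depth limits the low members, of which 5 in tumors and 12 in CAFs were not tested.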
